A study of Arabidopsis thaliana with 27 samples.

Results

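The comparison concerns how the expression difference between reciprocal hybrid zygotes of Arabidopsis thaliana changed as the zygotes aged. It rests on 12 of the 27 libraries of the series, 3 in each of 4 groups. LZy zygotes had a Landsberg erecta (Ler) mother and a Columbia (Col) father, CZy zygotes had a Col mother and a Ler father, and each cross was sampled at 14 and at 24 hours after pollination (LZy14, CZy14, LZy24, CZy24). Both crosses therefore carried 1 genome of each accession, and what differed between them was which parent gave which genome. For each gene the change was computed as the LZy minus CZy difference at 24 hours minus the same difference at 14 hours, on log2(FPKM + 1), where FPKM are fragments counted on a gene, divided by its length and by the library size, and genes without an entry in a table counted as 0. Of 24607 genes listed in the series, 18815 had an FPKM of at least 1 in at least 3 of the 18 zygote libraries and were tested. The 18 libraries are these 12 and the 6 of Col zygotes at the same hours (Zy14 and Zy24), which helped to estimate the spread and serve as a reference.

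The zygote of Arabidopsis starts with RNA and protein laid down in the egg cell, receives a smaller share from the sperm cell, and then takes over with transcription from its own genome. Between fertilization and the first division it elongates, replicates its DNA and sets up the asymmetry between the small apical cell, which makes most of the embryo, and the large basal cell, which makes the suspensor. Reciprocal crosses have the same nuclear genotype apart from which parent gave which copy, and they are used to look at the parental contributions to the young embryo.

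The 12 hybrid tables listed 15009 to 18879 genes above 0, and the sum of FPKM ranged from 756703 to 940207. Steps in the low values put 1 fragment per kb between 0.0513 and 0.0792 FPKM, a range of 1.54 times in sequencing depth. The identity of the cells was checked with their defining transcripts. The egg cell gene EC1.1, which encodes a small secreted protein that acts in gamete fusion, stood at 4452 to 8015 FPKM in the 6 hybrid libraries of 14 hours and was listed at 0 in the 6 of 24 hours, while the homeobox gene WOX2, an early marker of the apical lineage, stood at 1.63 to 3.48 and at 323 to 559 FPKM. In samples of pooled cells, fewer cells of a kind and less RNA per cell cannot be told apart.

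A set of libraries stood apart. LZy14 replicate 3 lay between replicates 1 and 2 of its group, within 0.01 FPKM, for 86.1% of the genes listed in the group, whereas the other 17 zygote libraries lay between the other libraries of their groups for 8.20% to 64.3%. Its log2 distance from the mean of replicates 1 and 2 had an SD of 0.0971 over 10859 genes, against 0.289 to 0.767 for the other libraries. The values are near those of a mixture of the other LZy14 libraries, so it cannot be taken as an independent replicate. How it was made was not tested. Counts over all genes and over gene lists are given with all libraries and without LZy14 replicate 3. For single genes, SEs and adjusted p-values come from the fit with all libraries unless stated. That fit counts LZy14 replicate 3 as a replicate, so it can overstate their precision. CZy14 replicate 3 correlated with its group at 0.885 and 0.895, against 0.988 between replicates 1 and 2, and CZy24 replicate 2 was low in mitotic genes. Over all genes CZy24 replicate 2 did not stand apart, with correlations of 0.931 and 0.965 with its group. CZy24 replicate 1 was further from the group, at 0.931 and 0.917. Replicate 2 was picked for its mitotic values, so leaving it out is no separate check of them. Nothing in the labels says that libraries of a group came from separate plants, so p-values measure the spread between these libraries, which may be technical.

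The reciprocal difference changed with age in 4095 of 18815 genes (21.8%), where a call needed a limma adjusted p under 0.05 and a change of at least 1 on the log2 scale in either direction. In 2259 genes (12%) the LZy minus CZy difference rose from 14 to 24 hours, and in 1836 (9.76%) it fell. Among called genes the median absolute change was 2.23 on the log2 scale, against a median standard error of 0.57 over all genes tested. The median change over all genes was 0.05. Without LZy14 replicate 3, 3064 of 18671 genes (16.4%) were called, 1749 (9.37%) with a rise and 1315 (7.04%) with a fall, and 3055 of the 3064 were among the 4095. Scaling by the median of ratios moved the median of all genes to 0.15 and the share of rises among called genes from 55.2% to 61.7%.

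The difference itself was called in 2187 genes (11.6%) at 14 hours and in 4340 (23.1%) at 24 hours. These differences share no library, and across the 18815 genes, which are not independent replicates, they had a Pearson r of 0.02. At both ages 516 genes were called, 23.6% of those of 14 hours and 11.9% of those of 24 hours, and 256 of the 516 had opposite signs. Of the 4095 genes whose difference changed, 2157 differed between the crosses at 24 hours only, 1000 at 14 hours only, 274 at both ages and 664 at neither. Without LZy14 replicate 3 the count at 14 hours was 1267 (6.79%) and the count at 24 hours 4060 (21.7%), and among changed genes 1777 differed at 24 hours only, 631 at 14 hours only, 134 at both and 522 at neither.

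**Figure D1:**
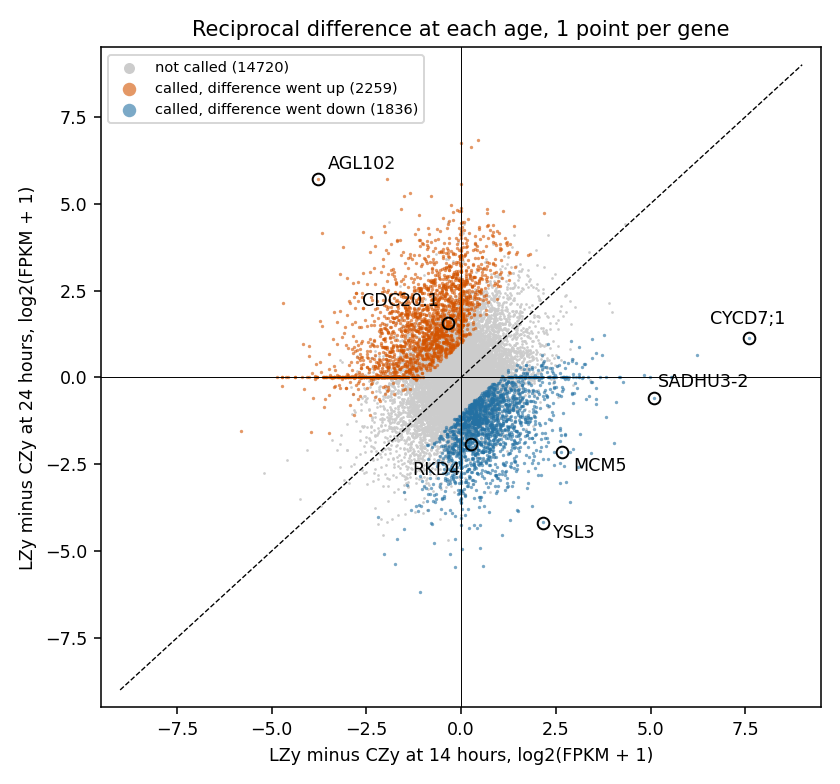
LZy minus CZy difference at 14 hours (x axis) and at 24 hours (y axis), both on log2(FPKM + 1), with 1 point for each of 18815 genes. Genes on the dashed diagonal had the same difference at both ages, the 2259 genes in orange lie above it and the 1836 in blue below it, and 7 of the genes described are circled.

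Seen as age changes within each cross, the largest class of the 2259 rising differences was 1113 genes that fell with age in CZy and were not called in LZy. A further 562 rose in LZy and were not called in CZy, and 177 rose in LZy and fell in CZy. Of the 1836 falling differences, 748 rose with age in CZy only, 607 fell in LZy only, and 100 did both. The remaining called genes moved the same way in both crosses by different amounts or passed in neither cross. Across genes the age changes of the 2 crosses had a Pearson r of 0.61. The change of the reciprocal difference had an r of -0.10 with the age change of Col zygotes, with which it shares no library.

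The largest rise was in AGL102, which encodes a MADS-box transcription factor of the AGAMOUS-like family. It was listed at 0 in the 3 LZy14 libraries and at 14.2, 14.9 and 9.47 FPKM in CZy14, then at 109, 15.2 and 79.1 FPKM in LZy24 and at 0 in the 3 CZy24 libraries. The crosses thus did not overlap at either age and changed places between them. The change was 9.48 ± 0.84 (SE) on the log2(FPKM + 1) scale, with an adjusted p of 3.48e-06, and 9.48 without LZy14 replicate 3 (adjusted p 3.39e-05). For genes listed at 0 in a group, such values are positions on this scale and not fold changes. In Col zygotes the gene followed CZy, with 8.77, 2.80 and 15.4 FPKM at 14 hours and 0 in the 3 libraries at 24 hours.

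Of the 12 rising genes named by size, 6 were called at both ages with opposite signs, beside 157 of all 2259 rises. Choosing genes by the size of the change favours such genes. AT1G11220, which encodes a DUF761 protein, was at 0 to 0.13 FPKM in LZy14, 7.99 to 21.2 in CZy14, 26.5 to 35.9 in LZy24 and 0 to 1.46 in CZy24, a change of 7.82. AT5G58480, an O-glycosyl hydrolase of family 17, the family of β-1,3-glucanases, went from 0 to 0.78 against 7.62 to 11.96 FPKM to 16.0 to 20.8 against 0.10 to 0.67, a change of 6.87. The other 3 were EXO (6.79), a phosphate-responsive family protein known for a part in growth regulated by brassinosteroids, AT1G69660 (6.82), a TRAF-like protein, and PATL1 (6.41), a lipid-binding patellin of the cell plate. None of these 5 genes overlapped between the crosses at either age, which their choice by calls at both ages favours. ENODL3, of the early nodulin-like family, was listed at 0 in the 6 hybrid libraries of 14 hours and the 3 CZy24 libraries and at 192, 58.3 and 109 FPKM in LZy24, a change of 6.75. It belonged to a class called at 24 hours only, with the uncharacterized AT4G09060 (7.66) and AT2G38160 (6.73), the LisH domain protein AT3G03130 (6.66), AT1G67035 (6.44) and the WEB family gene AT3G51720 (6.4).

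The largest fall was in the uncharacterized AT3G48490, which stood at 12.8, 4.54 and 8.31 FPKM in LZy14 against 0.80, 0 and 0 in CZy14, and at 3.68, 1.5 and 7.54 FPKM in LZy24 against 66.1, 61.4 and 40.7 in CZy24. The order of the crosses turned over between the ages, with a change of -6.47 ± 0.85. YSL3, a transporter of metal nicotianamine complexes, behaved alike. Its FPKM was 41.5, 56.0 and 48.5 in LZy14 and 7.82, 7.53 and 17.2 in CZy14, then 0 in the 3 LZy24 libraries and 15.3, 18.3 and 17.8 in CZy24. The level in CZy did not change by a called amount, and the fall of -6.33 ± 0.77 came with the loss of the transcript in LZy. The 3 further genes called with opposite signs were the RING finger gene WAVH1 (-5.73), known for a part in root gravitropism, the plasma membrane proton pump gene HA4 (-5.61), and the uncharacterized AT4G32205 (-5.95).

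CYCD7;1 encodes a D-type cyclin known from the last division of the stomatal lineage. It stood at 147, 298 and 214 FPKM in LZy14 and at 0.33, 0 and 0 in CZy14, with no overlap. At 24 hours it was at 2.20, 0 and 2.37 FPKM in LZy24 and 0 in the 3 CZy24 libraries, so the difference fell by 6.45 (SE 1.74, adjusted p 0.0129 with limma, and 0.0287 without LZy14 replicate 3). In Col zygotes of 14 hours the libraries disagreed, at 119, 262 and 0.53 FPKM. SADHU3-2 belongs to a family of retroposons known for heritable expression differences between accessions. It was at 26.5, 45.7 and 30.1 FPKM in LZy14 and at 0 in the 3 CZy14 libraries, and then at 35.3, 24.4 and 27.4 FPKM in LZy24 and 49.0, 42.7 and 40.6 in CZy24. All 6 Col zygote libraries listed it at 0. The transcript was thus found in both hybrids by 24 hours but at 14 hours only in the libraries with a Ler mother. The change was -5.70 ± 0.45 (limma adjusted p 1.14e-06, and 1.4e-05 without LZy14 replicate 3).

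The other 5 falling genes completed the group of 12. AGL67, another MADS-box gene, was at 67.3 to 77.6 FPKM in LZy14 and 38.6 to 57.0 in CZy14, then at 0 in the 3 LZy24 libraries and at 11.3, 73.2 and 86.3 in CZy24, a change of -6.01. AT1G06330, a heavy metal transport family gene (-5.61), and AT3G60660, a spindle and kinetochore-associated-like gene (-5.58), were likewise lower in LZy at 24 hours only. TPS10 (AT2G24210), a terpene synthase, changed by -5.67 and was higher in LZy at 14 hours only. AT1G21340, a Dof-type zinc finger gene, was listed at 0 in 1 of 3 LZy14 libraries, in all of CZy14 and LZy24 and in 1 of 3 CZy24 libraries. Its change of -5.65 was no longer called without LZy14 replicate 2 (-4.68, adjusted p 0.0502) or without CZy24 replicate 2 (-4.96).

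**Figure D2:**
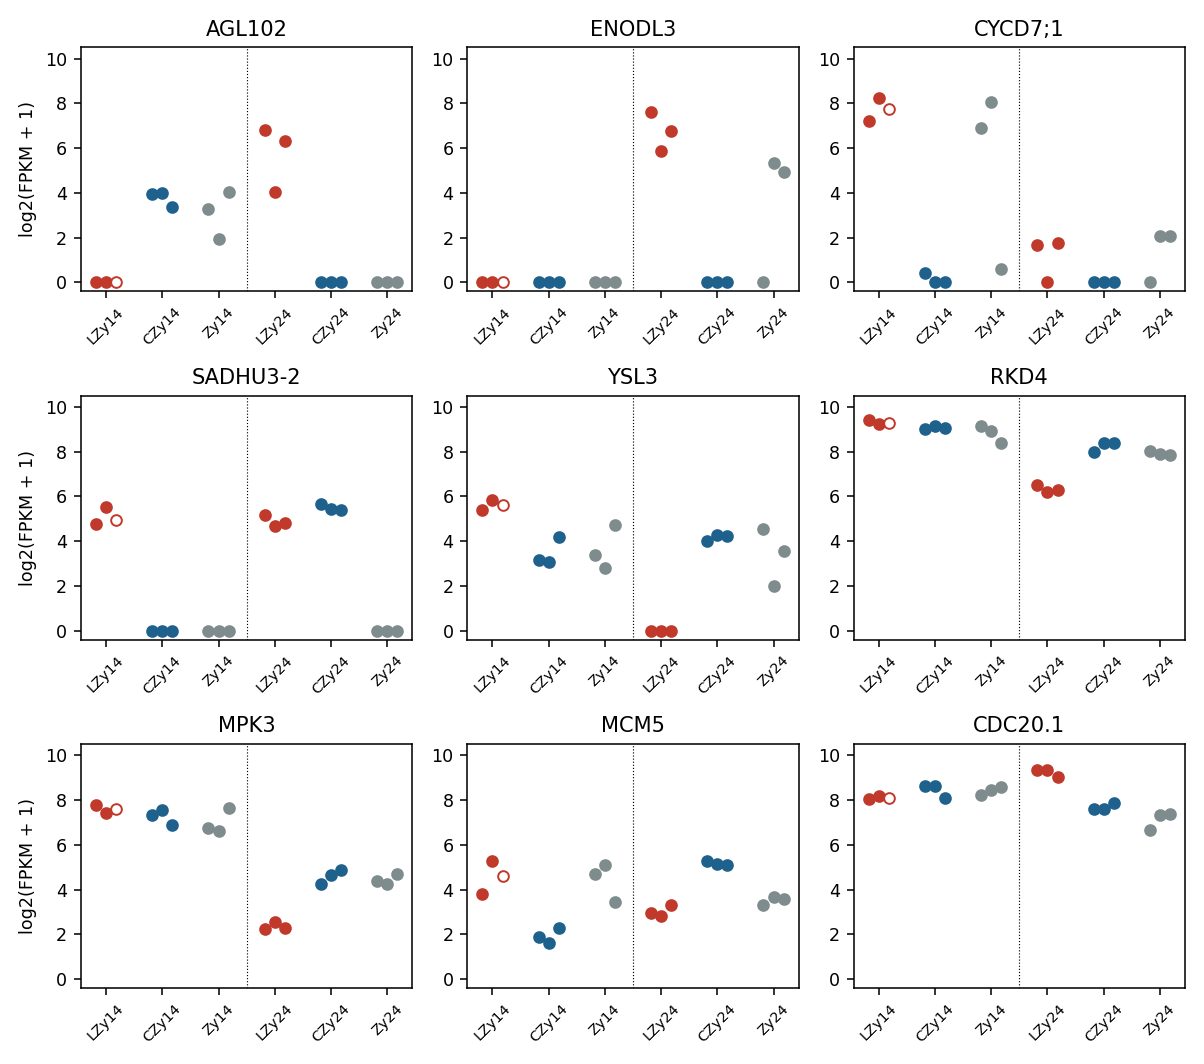
log2(FPKM + 1) of 9 genes in every library of LZy (red), CZy (blue) and Col zygotes (grey), with 14 hours left and 24 hours right of the dotted line and LZy14 replicate 3 drawn open. AGL102 changed places between the crosses, SADHU3-2 differed more at 14 hours, and RKD4, MPK3 and CDC20.1 differed more at 24 hours.

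DNA replication is carried out in S phase by origin licensing factors, a helicase, polymerases and the enzymes that supply nucleotides. Of 20 genes of this process, all tested, the difference fell in 9 (45%, against 9.76% of all genes) and rose in 1, and the median change of the 20 was -1.74 beside 0.05 over all genes. Without LZy14 replicate 3 the counts were also 9 and 1, with a median of -1.71. The mean log2(FPKM + 1) of the 20 genes was 3.63, 3.73 and 3.74 in LZy14, 3.14, 2.93 and 3.01 in CZy14, 3.49, 3.14 and 3.78 in LZy24 and 4.38, 4.56 and 4.60 in CZy24. LZy was thus above CZy in all libraries at 14 hours and below it in all at 24 hours. Leaving out any 1 of the 12 libraries gave 8 or 9 falls, and leaving out the 3 libraries that stood apart gave 8.

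The MCM proteins form the helicase that is loaded on origins and unwinds DNA in S phase. MCM5 was at 13.1, 37.9 and 23.0 FPKM in LZy14 and 2.70, 2.02 and 3.81 in CZy14, and at 6.69, 6.06 and 9.0 in LZy24 and 38.1, 34.1 and 32.7 in CZy24. It was higher in all LZy libraries at 14 hours and in all CZy libraries at 24 hours, a change of -4.78 ± 0.58 (adjusted p 4.95e-05). MCM3 (-4.39) and MCM7 (-3.43) were also called at both ages with opposite signs, and MCM4 (-2.93) at 24 hours only. MCM6 and MCM2 had values of -1.81 and -1.53 and did not pass (adjusted p 0.231 and 0.223).

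Among the other fallers were genes for the polymerase and its supply. PCNA1 encodes the sliding clamp of DNA polymerase. It stood at 23.9, 21.9 and 23.8 FPKM in LZy14, 5.85, 4.60 and 18.4 in CZy14, 32.6, 8.95 and 59.4 in LZy24, and 140, 136 and 158 in CZy24. The crosses did not overlap at either age, and the change was -3.84 ± 0.73. POLA2, a subunit of the polymerase α primase complex (-4.08), RNR1, the large subunit of ribonucleotide reductase (-2.46), the loading factor gene CDC6 (-2.97) and E2FB, a transcription factor of S phase genes (-2.47), fell too. RNR1 and E2FB were lower in LZy at 24 hours only, as was POLA2, and CDC6 was higher in LZy at 14 hours only. In CZy, 11 of the 20 genes rose with age and 1 fell, where 19.1% of all genes rose and 24.7% fell. In LZy, 2 rose and 4 fell, where 17.2% of all genes rose and 18.9% fell. CDT1B, which encodes another origin licensing factor, went the other way, with 57.3 to 80.1 FPKM in LZy24 against 5.70 to 12.3 in CZy24, and a change of 2.80 ± 0.63.

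Genes of mitosis and cytokinesis act after replication, when chromosomes part and the cell plate forms. Of 24 tested, the difference rose in 7 (29.2%, against 12% of all genes) and fell in 1, the median change was 1.94, and 22 of the 24 estimates were above 0. Without CYCB2;1, which passed the filter on low values only through LZy24, where it was high, 6 of 23 rose and the median was 1.92. At 24 hours 16 of the 24 were called higher in LZy and none lower by the limma call. Of all 18815 genes 11.5% were called higher and 11.6% lower at that age. Over the 24 genes the mean log2(FPKM + 1) was 2.27 to 2.66 in the 6 hybrid libraries of 14 hours, 6.36 to 6.43 in LZy24, and 4.80, 3.13 and 4.74 in CZy24, beside 3.06, 5.09 and 5.08 in Col zygotes of 24 hours. Both crosses were higher at 24 hours than at 14, LZy24 was above every CZy24 library, and CZy24 replicate 2 was below its group.

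CDC20.1, an activator of the anaphase-promoting complex, was at 261, 288 and 271 FPKM in LZy14, 389, 399 and 276 in CZy14, 647, 654 and 519 in LZy24, and 194, 190 and 229 in CZy24. The change was 1.92 ± 0.26 (adjusted p 0.000136). CYCB2;1, a B-type cyclin, was listed at 0 in the 9 hybrid libraries outside LZy24 and at 6.4, 3.69 and 5.54 FPKM in LZy24, a change of 2.61, and it was not tested when an LZy24 library was left out, since too few libraries then passed the filter. CDKB1;2, a plant-specific kinase of the G2 to M transition, rose from 3.78 to 5.16 to 96.6 to 117 FPKM in LZy and from 7.67 to 10.4 to 53.8 to 85.1 FPKM in CZy, and its reciprocal difference rose by 1.45. The other called rises were CYCB2;2 (4.64), the Aurora kinase gene AUR2 (4.24), CYCA1;1 (1.97) and CDKB2;2 (1.60). TES, a kinesin of the phragmoplast, the structure that builds the new cell wall, fell by 1.78, with 24.0 to 39.2 FPKM in LZy14 against 5.36 to 6.95 in CZy14 and overlapping levels at 24 hours.

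Several members that differed widely at 24 hours did not pass the test of the change, and in these CZy24 replicate 2 was low. CYCB1;1, a B-type cyclin of the entry into mitosis, was at 135, 98.8 and 117 FPKM in LZy24 and at 30.2, 2.91 and 28.5 in CZy24, and its change of 3.91 ± 1.45 had an adjusted p of 0.0602. KNOLLE, the syntaxin of the cell plate, was at 218, 182 and 140 FPKM in LZy24 and at 56.2, 0.80 and 53.4 in CZy24. Without CZy24 replicate 2 the called rises were 5 (10.2% of all genes rose and 7.93% fell in that fit) and the median 1.54, and without LZy14 replicate 3 they were 5 and 1.92. Leaving out 1 library at a time gave 3 rises without LZy24 replicate 1, 4 without LZy14 replicate 1, CZy14 replicate 2, LZy24 replicate 2 or LZy24 replicate 3, and 9 without CZy24 replicate 1, and without the 3 libraries that stood apart 4 rose and 0 fell. AUR2 and CYCA1;1 had adjusted p-values of 0.0517 and 0.0878 without LZy14 replicate 3.

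**Figure D3:**
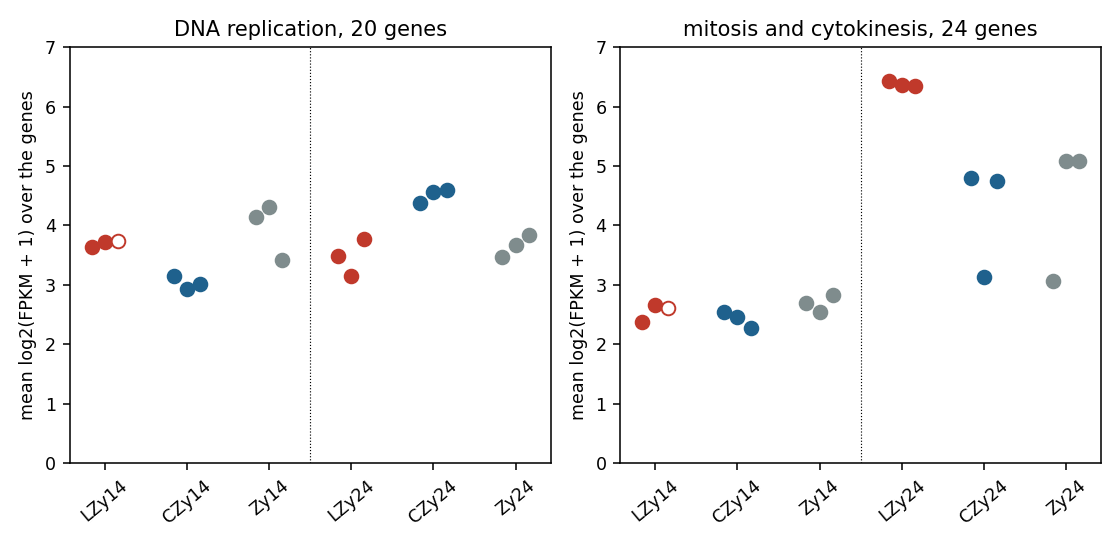
Mean log2(FPKM + 1) over 20 DNA replication genes (left) and 24 mitosis and cytokinesis genes (right), 1 point per library, with LZy in red, CZy in blue, Col zygotes in grey and LZy14 replicate 3 open. At 24 hours the CZy libraries were highest in replication genes and the LZy libraries, at 6.36 to 6.43, highest in mitotic genes.

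**Figure D4:**
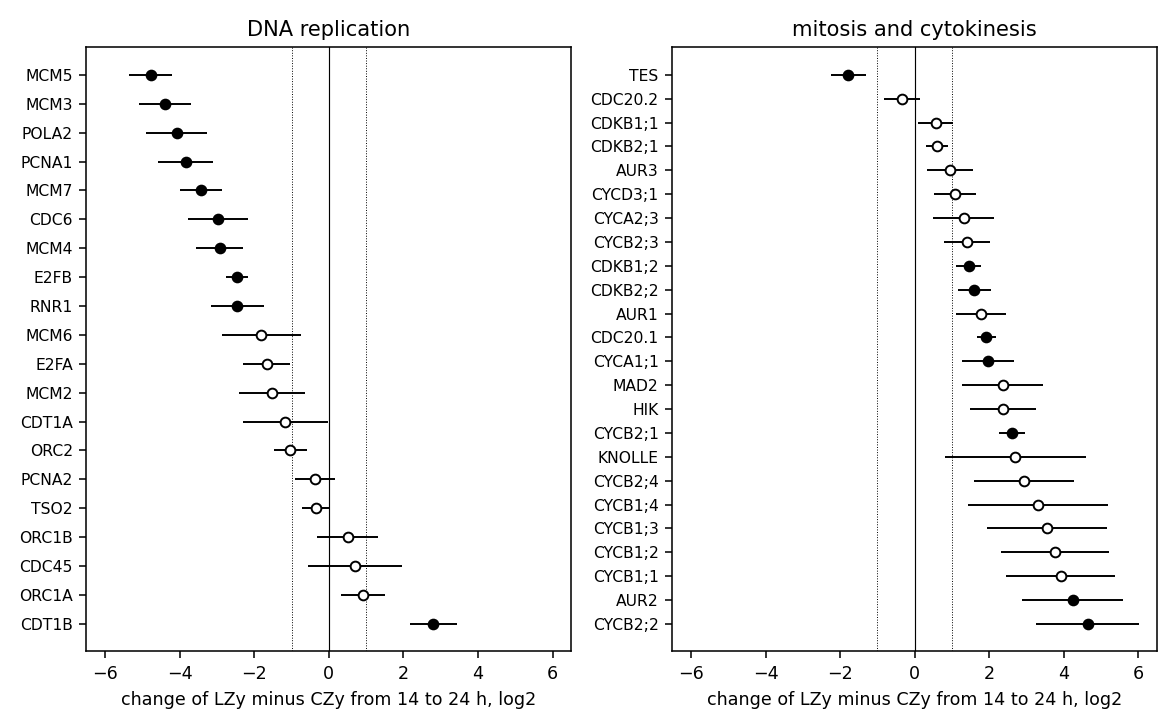
Change of the LZy minus CZy difference from 14 to 24 hours for each member of both lists, on log2(FPKM + 1), with bars of 1 SE, called genes filled and others open. Replication genes run down to -4.78 (MCM5) and mitotic genes up to 4.64 (CYCB2;2), and dotted lines mark a log2 change of 1 either way.

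Histones wrap DNA in nucleosomes, and those of the replication-dependent kind are made in S phase. Of 35 histone genes tested the difference fell in 4 and rose in none, with a median of -0.39, and the share of falls, 11.4%, was near the 9.76% of all genes. The falls numbered 2 without LZy14 replicate 3, 2 without CZy24 replicate 2, 8 without CZy14 replicate 3 (9.91% of all genes fell and 12.9% rose) and 2 under the median of ratios, where 1 rose. HTA11, an H2A.Z variant, stood at 7.66, 4.07 and 7.28 FPKM in LZy14, 1.57, 1.43 and 0 in CZy14, 76.7, 47.2 and 80.0 in LZy24, and 217, 229 and 190 in CZy24. It rose with age in both crosses, more so in CZy, and the difference changed by -3.61 ± 0.56. The histone superfamily gene AT5G59690 fell by 1.21. AT3G53730, of the same family, fell by 1.09, and MGH3, a histone H3 specific to male gametes, by 1.91, but their adjusted p-values without LZy14 replicate 3 were 0.0769 and 0.105, and they were called in 4 and 1 of the 12 fits without 1 library. Histone genes have near-identical copies, so counts of single members are uncertain.

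All 9 egg cell genes tested fell with age in LZy and in CZy, where 18.9% and 24.7% of all genes fell. The reciprocal difference rose in 1 of the 9 (11.1%, near the 12% of all genes), also without LZy14 replicate 3, and fell in none by the limma call. EC1.1 had a change of -0.09 ± 0.33 and the egg cell aspartyl protease gene AT1G31450 one of 0.00 ± 0.35, the latter at 2214, 3207 and 2609 FPKM in LZy14, 3240, 1692 and 2241 in CZy14 and 0 to 0.51 at 24 hours. RKD1, a transcription factor of the RWP-RK family that acts in egg cell identity, was the gene that rose. It was at 2.46, 7.41 and 4.29 FPKM in LZy14 and 54.2, 55.0 and 14.1 in CZy14, and at 24 hours 2.31 FPKM in LZy24 replicate 3 was the only hybrid value above 0. The difference rose by 3.33 (SE 0.83, adjusted p 0.00829, and 0.0206 without LZy14 replicate 3).

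Among 18 polarity genes, many from the YODA pathway, a MAP kinase cascade that promotes elongation of the zygote and the fate of the basal cell, the difference fell in 2 and rose in 1. These are 11.1% and 5.56% of the list, beside 9.76% and 12% of all genes, and without LZy14 replicate 3 the counts were 2 and 0. RKD4, which the zygote needs to elongate and divide asymmetrically, was at 679, 606 and 626 FPKM in LZy14 and 520, 566 and 525 in CZy14, then at 90.7, 71.7 and 77.6 in LZy24 and 255, 330 and 331 in CZy24. It fell with age in LZy and not by a called amount in CZy, and the change was -2.16 ± 0.23 (adjusted p 1.99e-05). MPK3, a MAP kinase of the cascade, was at 171 to 220 FPKM in LZy14 and 117 to 185 in CZy14, and at 3.75, 4.85 and 3.88 in LZy24 against 18.1, 24.4 and 27.9 in CZy24. It fell in both crosses, further in LZy, with a change of -2.59 ± 0.37. The kinase MPK6, which overlaps with MPK3 in function, had a change of 0.29 (adjusted p 0.673), and the MAP kinase kinase kinase YDA one of -0.50 (0.203).

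ERL2, a leucine-rich repeat receptor kinase of the ERECTA family, rose by 2.01 from levels under 7 FPKM and was called in 7 of 12 fits without 1 library (adjusted p 0.0579 without LZy14 replicate 3). Unlike RKD4 and MPK3, the genes WOX8, WOX9, WOX2 and SSP were not called. WOX8, a homeobox gene of the zygote and the basal lineage, had a change of -0.77 (adjusted p 0.0199), under the size required for a call. WOX9, its close relative, had 0.89 (0.479), WOX2 0.49 (0.438), and SSP, the kinase whose transcript is known to come in with the sperm cell, 0.98 (0.269).

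Of 13 tested regulators of embryo patterning and maturation, the difference rose in 2 and fell in 2, 15.4% each, beside 12% and 9.76% of all genes. The counts without LZy14 replicate 3 were 1 and 2. CUC2, a boundary gene of the NAC family, was at 6.59, 10.6 and 8.02 FPKM in LZy14 and at 0 in the 9 other hybrid libraries, a change of -3.21 ± 0.67. PLT2, an AP2 factor of the root stem cell niche, fell from 95.6 to 122 to 39.9 to 60.4 FPKM in LZy and was not called in CZy, a change of -1.39. L1L, a nuclear factor Y subunit related to LEC1, rose by 2.77, from 2.00 to 7.09 FPKM against 13.2 to 37.0 at 14 hours to under 2 FPKM in every hybrid library of 24 hours. BDL, an AUX/IAA repressor of auxin response, rose by 2.86 but was called in 2 of 12 fits without 1 library (adjusted p 0.084 without LZy14 replicate 3). The maturation factor gene LEC2 (-0.58, adjusted p 0.666) and BBM, an AP2 factor of embryo identity (-1.1, adjusted p 0.0997), did not pass.

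Of 18 auxin genes 2 rose (11.1%, beside 12% of all genes) and 1 fell (5.56%, beside 9.76%), and without LZy14 replicate 3 the counts were 1 and 0. ARF8, an auxin response factor, rose by 1.85 and was at 4.27 to 7.96 FPKM in LZy24 against 0 to 0.07 in CZy24. YUC4, an auxin biosynthesis gene, fell by 3.24 and stood at 1.17 to 2.92 FPKM in LZy24 against 9.10 to 25.4 in CZy24. ABP1, an auxin binding protein, rose by 1.62. These were called in 6, 4 and 5 of the 12 fits without 1 library, with adjusted p-values without LZy14 replicate 3 of 0.0491, 0.0599 and 0.0638. Of 12 genes reported as imprinted in endosperm 2 rose (16.7%, beside 12% of all genes) and none fell by the limma call, and without LZy14 replicate 3, 1 rose. SUVH7, a histone methyltransferase, was at 0, 3.41 and 1.69 FPKM in LZy14 and 8.32, 8.09 and 16.2 in CZy14 and at 0 in the 6 libraries of 24 hours, a change of 2.31. The chromatin remodelling gene PKR2 rose by 1.53 (adjusted p 0.0618 without LZy14 replicate 3) and was called in 2 of 12 fits.

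Of 33 genes of DNA methylation, small RNA and Polycomb, 3 rose and 3 fell, 9.09% each, beside 12% and 9.76% of all genes, with a median of -0.11. In the fit without LZy14 replicate 3 both counts were 2. ROS1, a DNA glycosylase that removes methylated cytosine, was at 2.60 to 6.96 FPKM in LZy14, 6.06 to 8.48 in CZy14, 3.07, 4.98 and 4.08 in LZy24 and 0.10, 0.52 and 0.49 in CZy24. Its loss in CZy gave a change of 2.48. The Argonaute gene AGO10 rose by 3.11, with 11.6 to 12.3 FPKM in LZy24 against 0.40 to 2.16 in CZy24. AGO2, of the same family, fell by 1.32, and the Dicer gene DCL2 by 2.0, with 22.0 to 27.5 FPKM in LZy24 against 67.1 to 73.6 in CZy24. Both DCL2 and ROS1 were called at 24 hours only.

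Genes of mRNA decay and poly(A) binding, 19 in all, held 2 rises and 2 falls, 10.53% each, beside 12% and 9.76% of all genes, and the counts were the same without LZy14 replicate 3. DCP2, the decapping enzyme, was at 123, 77.3 and 100 FPKM in LZy14 and 67.1, 66.8 and 53.3 in CZy14, and at 55.0, 56.7 and 48.6 in LZy24 and 99.7, 133 and 141 in CZy24, a change of -1.85 ± 0.26. LSM1A, of the complex that activates decapping, fell by 1.90, with 205 to 225 FPKM in LZy24 against 445 to 592 in CZy24. Both were higher in every CZy library at 24 hours. The poly(A) binding protein gene PAB3 rose by 4.14, with 7.40 to 10.6 FPKM in LZy24 and 0.02 to 0.08 in CZy24. PAB7 rose by 1.54 and was called in 8 of 12 fits without 1 library (adjusted p 0.0413 without LZy14 replicate 3, 0.0661 without LZy14 replicate 2).

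Of 312 genes taken as cytosolic ribosomal proteins by their product description, the difference rose in 15 and fell in 5, 4.81% and 1.60% of them, below the 12% and 9.76% of all genes, with a median of 0.11. Leaving out LZy14 replicate 3 gave 14 rises and 3 falls, and under the median of ratios 24 rose and 4 fell. AT5G20160, of the L7Ae/L30e family, was at 102, 166 and 137 FPKM in LZy14, 282, 292 and 404 in CZy14, 476, 507 and 508 in LZy24 and 269, 353 and 413 in CZy24, a change of 1.82. AT3G06180, an L34e superfamily gene, was at 11.2 to 19.0 FPKM in LZy24 and 0 to 0.16 in CZy24, a change of 3.87. AT1G70190, of the L7/L12 family found in organelles, rose by 1.87, and AT1G64880, an S5 family gene, by 1.23. The list by description is thus not purely cytosolic. Of 17 ribosome biogenesis genes 3 rose (17.65%, beside 12% of all genes) and 1 fell (5.88%, beside 9.76%). The rises numbered 2 without LZy14 replicate 3 and 1 to 4 over the fits without 1 library. RH36, an RNA helicase of ribosomal RNA processing, was at 20.19 to 30.6 FPKM in LZy24 and 0.70 to 2.07 in CZy24, a change of 3.42, and NUC2, a nucleolin, fell by 1.19. The Brix domain genes AT3G15460 and AT1G52930 rose by 4.0 and 5.22 but were at 0 in LZy24 replicate 2 against 40.9 to 259 FPKM in the other LZy24 libraries. They were called in 2 and 1 of 12 fits without 1 library, with adjusted p-values of 0.0662 and 0.0921 without LZy14 replicate 3, and reads may be split between these related copies.

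Stress and wounding genes held 3 rises and 3 falls among 22, 13.6% each, beside 12% and 9.76% of all genes. The counts were 1 and 2 without LZy14 replicate 3, where 9.37% of all genes rose and 7.04% fell, and 0 and 1 without the 3 libraries that stood apart. ERF1, an ethylene response factor, was at 17.64, 7.70 and 14.2 FPKM in LZy14 and 2.70, 1.86 and 0 in CZy14, then at 1.34, 1.32 and 0.53 in LZy24 and 15.9, 9.47 and 6.98 in CZy24. The order turned over, with a change of -5.09 ± 0.69. ZAT12, a zinc finger gene of oxidative and wound responses, fell by 2.5, with 15.3, 56.8 and 16.9 FPKM in LZy24 and 78.8, 334 and 364 in CZy24. HSFA7A, a heat shock factor, was at 0, 3.48 and 1.53 FPKM in LZy14, 26.2, 31.2 and 117 in CZy14 and 0 in the 6 libraries of 24 hours, a change of 4.38. ZAT6, related to ZAT12, rose by 2.67 from levels that were also highest in CZy14 replicate 3 (158 FPKM), with an adjusted p of 0.0512 without LZy14 replicate 3.

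Immune receptor genes, taken by product description, recognise pathogen effectors, and many differ in sequence between accessions. Of 103 tested, the difference rose in 22 (21.4%, beside 12% of all genes) and fell in 5 (4.85%, beside 9.76%). The median was 0.64 beside 0.05 over all genes. At 14 hours 28 of the 103 were lower in LZy (7.22% of all genes) and 2 higher (4.41%), and at 24 hours 13 were lower (11.6%) and 7 higher (11.5%). Without LZy14 replicate 3 the counts were 11 rises (9.37% of all genes rose in that fit) and 2 falls, and the rises numbered 12 without CZy14 replicate 1 or CZy14 replicate 2 and 13 without LZy24 replicate 2 or LZy24 replicate 3. Under quantile normalization 10 rose and 12 fell, so the direction of this group's counts depends on the scaling. AT1G72850, of the TIR-NBS class, was at 0.05 to 0.11 FPKM in LZy14, 1.54 to 2.27 in CZy14, 2.22 to 5.15 in LZy24 and 0 in CZy24, a change of 3.60. The TIR-NBS-LRR genes AT5G45060 (3.92), AT4G19510 (3.56) and AT5G45210 (3.44) were all lower in LZy at 14 hours. AT5G45210 was at 0.06 to 2.21 FPKM in LZy14 and 15.8 to 32.3 in CZy14 and at 0 in the 6 libraries of 24 hours. Members of this family share sequence, and alleles of Ler were counted against the Col reference build that the submitters' notes name. The part of either in these values was not tested.

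F-box genes, which choose targets for protein degradation, held 53 rises and 29 falls among 325 tested, 16.3% and 8.92%, beside 12% and 9.76% of all genes, with a median of 0.06. Leaving out LZy14 replicate 3 gave 40 and 19, and under quantile normalization they were 39 and 29 with a median of -0.06. AT3G52680 was at 0 to 0.47 FPKM in LZy14, 5.96 to 7.04 in CZy14, 4.28 to 12.7 in LZy24 and 0.03 to 1.90 in CZy24, so the order turned over, a change of 4.91. AT1G11270 also changed by 4.91, from 12.7 to 12.9 FPKM against 37.5 to 84.4 to 6.57 to 13.2 against 0.17 to 0.20. AT1G80470 was at 347 to 396 FPKM in LZy14 and 267 to 295 in CZy14, and at 0 in LZy24 and 30.8, 17.3 and 13.2 in CZy24, a change of -4.74. AT3G51171 was listed at 27.2, 18.5 and 11.3 FPKM in CZy24 and at 0 in the 9 other hybrid libraries and the 6 Col zygote libraries, a change of -4.24, and was not tested without a CZy24 library.

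Of 18 tested genes listed for known natural variation between accessions, 2 rose (11.1%, beside 12% of all genes) and 3 fell (16.7%, beside 9.76%), and without LZy14 replicate 3 the counts were 1 and 2. FRI, a regulator of flowering time, was at 2.60, 2.01 and 2.31 FPKM in LZy14 and 18.6, 20.4 and 21.2 in CZy14, and at 6.64, 5.27 and 6.79 in LZy24 and 4.57, 1.53 and 3.86 in CZy24. The difference at 14 hours was gone by the call at 24 hours, with a change of 3.49 ± 0.55. The FLC relatives FLM (-2.59) and MAF3 (-1.90) fell. FLM was higher in LZy at 14 hours only, and MAF3 was at 4.59 to 8.80 FPKM in LZy24 against 26.7 to 47.6 in CZy24. MAF2 fell by 1.06 and was called in 5 of 12 fits without 1 library (adjusted p 0.0652 without LZy14 replicate 3).

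Markers of other cells differed between the groups. The summed level of 17 sperm and pollen markers was 298 to 577 FPKM in LZy14, 194 to 291 in CZy14, 20.7 to 33.3 in LZy24 and 44.8 to 55.5 in CZy24, with 10 and 11 of the 17 at 0 in all libraries of LZy24 and CZy24. The highest member was GEX1 in LZy14 and CZy14 but CER9 in LZy24 and CZy24, so the sums of the 2 ages were led by different genes. Of 12 tested, 5 fell (41.7%, beside 9.76% of all genes) and 1 rose, and each of the fits without 1 library gave 3 or 4 falls, 3 of them without LZy14 replicate 3. Among the 5 was GEX1, a nuclear membrane protein of gametes (-4.36), at 179 to 399 FPKM in LZy14, 81.6 to 183 in CZy14, 0 to 0.57 in LZy24 and 6.20 to 13.8 in CZy24. Seed coat and integument markers, 12 in all, summed to 127 to 165 FPKM in LZy14, 39.5 to 96.4 in CZy14, 0.20 to 1.1 in LZy24 and 3.43 to 15.1 in CZy24, nearly all of it MUM4 (-3.09), and 9, 7, 9 and 8 were at 0 in all libraries of these groups. Central cell and endosperm markers summed to 22.0 to 33.6 FPKM in LZy14, 85.0 to 116 in CZy14, 17.8 to 20.3 in LZy24 and 10.3 to 13.8 in CZy24. Synergid markers had median sums of 37.8, 20.02, 5.23 and 13.4 FPKM in the same order, with FER the highest member in each group. Photosynthetic markers summed to 35.3 to 48.0, 7.92 to 15.5, 15.4 to 37.3 and 31.9 to 61.9 FPKM. Of the genes tested 1 of 7 central cell markers rose (14.3%, beside 12% of all genes). Falls were called in 1 of 3 synergid, 1 of 3 seed coat and 3 of 9 photosynthetic markers (33.3% of each, beside 9.76%). Of the 3 photosynthetic falls 1 passed the filter only through CZy24, and without that gene 2 of 8 fell. In lists this short a single call shifts the share widely. The counts of synergid, seed coat and photosynthetic markers were the same without LZy14 replicate 3, and the central cell marker was no longer called. The part of these cells in the results above was not tested.

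**Figure D5:**
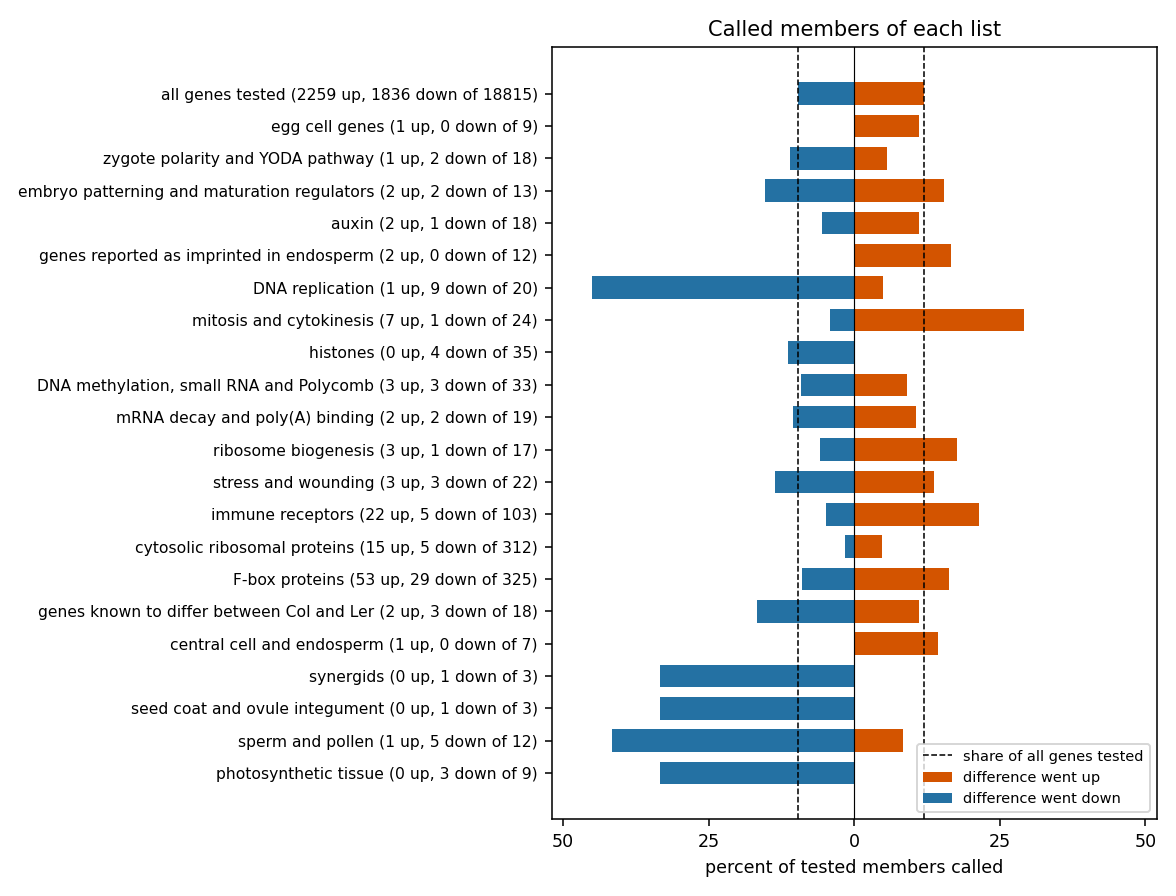
Percent of tested members of each list whose reciprocal difference rose (orange, right) or fell (blue, left) from 14 to 24 hours, with counts in the labels and dashed lines at 12% and 9.76%, the shares of all genes tested. DNA replication, at 9 of 20 down, and mitosis and cytokinesis, at 7 of 24 up, lie beyond the lines in opposite directions, and lists with 3 or more tested members are drawn.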

How the data were processed

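Polyadenylated RNA of isolated zygotes was captured on beads and amplified as cDNA with a SMART-Seq v4 kit, per the labels' protocols. The deposited values are FPKM per gene, made by the authors, with 1 table per library. Per the submitters' processing notes TopHat2, RSEM and the TAIR10 build were used, and versions are not given in the sources used here. Names and products came from an annotation of a later release, by locus tag (24511 of 24607 loci found), and no coordinates or sequences are given.

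limma (version 3.58.1, R 4.3.3) was run on log2(FPKM + 1) over 18 zygote libraries, with trend, robust estimation and Benjamini-Hochberg adjustment over 18815 genes. The pseudocount makes changes of low genes too small. Checks on simulated data preceded the fits. Named genes were the 12 largest called changes in each direction with a group mean of at least 10 FPKM that kept sign and size without each library, up to 4 called members per list, and 9 genes of egg and zygote identity; other list members named in the text were chosen after their values were seen. The gene lists and tests were chosen with earlier results of these data known. Other computing used Python 3.11.15, numpy 2.4.6 and pandas 2.3.3. The tables hold no counts, so no counting intervals are given.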

Additional observations from a re-analysis of the deposited data

Results flagged for a closer look

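The age contrast of the reciprocal difference was itself a test of whether the 2 crosses differed by an unequal amount at 14 and 24 hours, and it passed in 4095 genes. The 81 of these that the naming rule chose are brought together here, up to 4 from each gene list, with their change on log2(FPKM + 1), LZy minus CZy at 24 hours minus the same at 14 hours. By the naming rule, the largest rises were AGL102 (9.48), AT1G11220 (7.82), AT4G09060 (7.66), AT5G58480 (6.87), AT1G69660 (6.82), EXO (6.79), ENODL3 (6.75), AT2G38160 (6.73), AT3G03130 (6.66), AT1G67035 (6.44), PATL1 (6.41) and AT3G51720 (6.4). The largest falls by that rule were AT3G48490 (-6.47), CYCD7;1 (-6.45), YSL3 (-6.33), AGL67 (-6.01), AT4G32205 (-5.95), WAVH1 (-5.73), SADHU3-2 (-5.70), TPS10 AT2G24210 (-5.67), AT1G21340 (-5.65), HA4 (-5.61), AT1G06330 (-5.61) and AT3G60660 (-5.58).

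For egg cell genes, the member chosen by the rule was RKD1 (3.33). In the group zygote polarity and YODA pathway, the members chosen by the rule were RKD4 (-2.16), MPK3 (-2.59) and ERL2 (2.01). Under embryo patterning and maturation regulators, the members chosen by the rule were CUC2 (-3.21), PLT2 (-1.39), L1L (2.77) and BDL (2.86). From auxin, the members chosen by the rule were YUC4 (-3.24), ARF8 (1.85) and ABP1 (1.62). For genes reported as imprinted in endosperm, the members chosen by the rule were SUVH7 (2.31) and PKR2 (1.53). In the group DNA replication, the members chosen by the rule were E2FB (-2.47), MCM5 (-4.78), MCM3 (-4.39) and MCM7 (-3.43). Under mitosis and cytokinesis, the members chosen by the rule were CYCB2;1 (2.61), CDC20.1 (1.92), CDKB1;2 (1.45) and TES (-1.78). From histones, the members chosen by the rule were HTA11 (-3.61), AT5G59690 (-1.21), AT3G53730 (-1.09) and MGH3 (-1.91). For DNA methylation, small RNA and Polycomb, the members chosen by the rule were ROS1 (2.48), AGO2 (-1.32), AGO10 (3.11) and DCL2 (-2.0). In the group mRNA decay and poly(A) binding, the members chosen by the rule were DCP2 (-1.85), LSM1A (-1.90), PAB3 (4.14) and PAB7 (1.54). Under ribosome biogenesis, the members chosen by the rule were RH36 (3.42), NUC2 (-1.19), AT3G15460 (4.0) and AT1G52930 (5.22). From stress and wounding, the members chosen by the rule were ERF1 (-5.09), HSFA7A (4.38), ZAT12 (-2.50) and ZAT6 (2.67). For immune receptors, the members chosen by the rule were AT1G72850 (3.60), AT5G45210 (3.44), AT5G45060 (3.92) and AT4G19510 (3.56). In the group taken as cytosolic ribosomal proteins by product description, the members chosen by the rule were AT3G06180 (3.87), AT1G70190 (1.87), AT5G20160 (1.82) and AT1G64880 (1.23). That group is not purely cytosolic, since AT1G70190 is of a family found in organelles. Under F-box proteins, the members chosen by the rule were AT1G80470 (-4.74), AT3G51171 (-4.24), AT3G52680 (4.91) and AT1G11270 (4.91). From genes known to differ between Col and Ler, the members chosen by the rule were FRI (3.49), FLM (-2.59), MAF3 (-1.90) and MAF2 (-1.06). The changes come from the same limma fit as the counts, and no cause was tested.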

How the results depend on the processing

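Most alternatives left the count of genes whose reciprocal difference changed within 1.5 times of 4095. With library weights it was 8291 (4334 up, 3957 down), and LZy14 replicate 3 then had a weight of 5339. With that library left out, weights gave 5109, and in both fits the weight estimate stopped before it converged. Chosen after seeing the data, leaving out LZy14 replicate 3, CZy14 replicate 3 and CZy24 replicate 2 gave 2477 (1500 up, 977 down), and using LZy14 replicate 3 alone for its group gave 1907 (1041 up, 866 down), both with fewer samples, the lone sample being assumed to vary like the other groups. Without 1 library at a time the count was 3064 to 4242 (1726 to 2399 up, 1315 to 1897 down). The count at 14 hours was 1267 to 2293 without 1 library (1267 without LZy14 replicate 3, 1414 without CZy14 replicate 2), 1238 with a pseudocount of 5, 4428 with weights, 1290 with weights and without LZy14 replicate 3, 1115 without the 3 libraries and 360 with LZy14 replicate 3 alone. The count at 24 hours was 2840 with a pseudocount of 5 and 3272 to 4553 without 1 library. Equal sums gave 4033 changed genes, the median of ratios 4124 and quantile normalization 3767, with 55.4%, 61.7% and 50.4% up.

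Libraries with the same replicate number in different groups had deviations from their group means that correlated at -0.029 to 0.067, so the numbers were not taken as pairs, and the replicate block gave 4023 changed genes, 2146 at 14 hours and 4321 at 24 hours. Of 81 called named genes 14 lost the call without at least 1 single library, 11 of them without LZy14 replicate 3, and 19 of 80 lost it without the 3 libraries. The naming rule chose genes for size and call, so the other genes' stability is no separate evidence. Depth limits low genes, and FPKM carry no counts.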

Other observations

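Of 13 further gene groups, taken by product description after their values were seen, none has a test. Several share genes with the lists above and are no separate evidence. Minichromosome maintenance genes overlap with DNA replication, NBS-LRR genes with immune receptors, and kinesin motors with mitosis and cytokinesis. Pentatricopeptide repeat proteins, which bind RNA and act mainly in editing and processing of transcripts in mitochondria and plastids, numbered 286 among the genes tested. The reciprocal difference rose in 64 of them (22.4%, beside 12% of all genes) and fell in 15 (5.24%, beside 9.76%), and the median change was 0.64 beside 0.05 over all genes. With age 114 fell and 26 rose in CZy, where 24.7% of all genes fell and 19.1% rose. In LZy 37 fell and 30 rose, beside 18.9% and 17.2%. Without LZy14 replicate 3 the counts were 55 and 13, and the median was 0.35 under quantile normalization and 0.73 under the median of ratios.

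The counts below stand beside 12% rises and 9.76% falls of all genes. More rises than falls were also counted in GPI-anchored proteins (7 and 0 of 15, 46.7% and 0%), CC-NBS-LRR genes (6 and 0 of 16, 37.5% and 0%), TIR-NBS-LRR genes (13 and 3 of 64, 20.3% and 4.69%), arabinogalactan and fasciclin-like proteins (9 and 3 of 34, 26.5% and 8.82%), kinesin motors (6 and 5 of 43, 13.95% and 11.6%) and MATE efflux proteins (2 and 1 of 26, 7.69% and 3.85%). The kinesin shares were near those of all genes, and the MATE shares were below them in both directions. Under quantile normalization CC-NBS-LRR genes held 1 rise and 1 fall, and TIR-NBS-LRR genes 7 and 7. Without LZy14 replicate 3 the CC-NBS-LRR counts were 2 and 0. More falls than rises were counted in purple acid phosphatases (1 rise and 5 falls of 16, 6.25% and 31.25%), DNA polymerase genes (1 and 5 of 18, 5.56% and 27.8%), minichromosome maintenance genes (2 and 5 of 11, 18.2% and 45.45%), MADS-box genes (6 and 8 of 44, 13.6% and 18.2%), cellulose synthase genes (1 and 3 of 22, 4.55% and 13.6%) and expansins (1 and 2 of 12, 8.33% and 16.7%).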
